A study of Mus musculus with 16 samples.

Results

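The hippocampus of mice that carry the PS19 tau transgene and lack p16 was compared with that of wildtype mice, 4 libraries against 4 of the 16 in the series. The 8 libraries were chosen by their titles, and rows of ERCC spike-in transcripts were left out. All 16 libraries are bulk total RNA from the isolated hippocampus of 8-month-old female mice, 4 in each of 4 groups. WT mice had neither change, p16KO mice had p16 knocked out, PS19 mice carried the transgene with p16 intact, and PS19_p16KO mice had both. The sources used here do not give the strain background, the knockout allele or the breeding. They also do not state whether each sample is a separate animal, so the p-values measure only the spread between samples, which may be technical.

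The comparison asks how far the double genotype lay from the wildtype level and which genes stayed different from it. PS19 mice express a mutant human tau under the promoter of the mouse prion protein gene Prnp, mainly in neurons, and they develop tau aggregates, gliosis and neuron loss with age. The protein p16, a product of Cdkn2a, blocks the kinases that carry a cell into the cell cycle and is used as a marker of senescent cells. In brains with tau or amyloid deposits, microglia take up a disease-associated state, in which genes of lipid handling, lysosomes and phagocytosis are raised, and astrocytes raise Gfap.

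Libraries held between 18485552 and 22311322 gene counts, and levels are given as CPM, which relate a count to the TMM-scaled size of its library. A gene passed the test when its adjusted p from edgeR's quasi-likelihood test, Benjamini-Hochberg over 16372 genes, was under 0.05. Differences are log2 fold changes with a standard error or a 95% interval. The tissue label was checked against C1ql2, a marker of dentate granule cells, which had 103 to 143 CPM in WT and 159.9 to 168 CPM in PS19_p16KO. Library 3 of PS19_p16KO and library 1 of WT stood apart by RNA of the choroid plexus, the secretory tissue of the ventricles, which does not belong to the hippocampus. Ttr, its main transcript, had 5122 CPM and 713 CPM in these libraries, against at most 21.9 CPM in the other 6.

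Only 6 of the 16372 genes passed the test in PS19_p16KO against WT, which is 0.0366% of them. Of these, 5 were higher in PS19_p16KO (0.0305%) and 1 was lower (0.00611%). The higher genes were Prnp, the neighbouring pseudogene Lamr1-ps1, the noncoding RNA gene 4930590L14Rik, the guanylate-binding protein gene Gbp2b and the oligodendrocyte gene Opalin, and the lower gene was Gpatch11. In 11823 genes (72.2%) the 95% interval of the difference lay within 1.5-fold either way. An unadjusted p under 0.05 was reached by 1334 genes (8.15%), and the libraries of both groups did not overlap for 670 genes (4.09%). For PS19 against WT in the same fit, which shares the WT libraries, 264 genes passed (1.61%), 255 of them higher (1.56%). In PS19_p16KO against PS19, 135 genes passed (0.825%), 8 higher (0.0489%) and 127 lower (0.776%). These counts moved with single libraries, from 4 to 16 for PS19_p16KO against WT, from 124 to 438 for PS19 against WT and from 29 to 347 for PS19_p16KO against PS19.

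Cdkn2a, the knocked out gene, was close to the detection limit. This gene (chromosome 4, 89274471 to 89294653) had 1, 1, 4 and 2 counts in the WT libraries and 1, 1, 0 and 0 in the PS19_p16KO libraries, which overlap. WT had a mean of 0.104 CPM ± 0.0766 (SD, n = 4) and PS19_p16KO one of 0.0252 CPM ± 0.0292. A difference was not detectable at this depth (exact two-sided permutation p = 0.143 over 70 assignments, of which the smallest possible is 0.0286). In the other groups the summed counts were 3 in p16KO and 18 in PS19. The sources used here do not say which exons were deleted, so these counts check the label only weakly. Mapt, the mouse gene of tau, had 558, 464, 480.4 and 526 CPM in WT and 580.3, 556, 545 and 598 CPM in PS19_p16KO. These ranges overlap, and the log2 difference of 0.17 (95% interval 0.041 to 0.29) did not pass (adjusted p = 0.568). Whether reads of the human tau transgene are counted at Mapt was not tested.

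Prnp, which encodes the prion protein of neuronal membranes and whose promoter drives the transgene, was the clearest protein-coding change. The promoter sequences of Prnp and Opalin are shown because the first drives the transgene and the second belongs to the only oligodendrocyte gene that passed. They are the 250 bases before the annotated start in RefSeq on GRCm38.p6, 5′ to 3′ on the gene's strand, at chr2:131909678-131909927 (plus) for Prnp and chr19:41077114-41077363 (minus) for Opalin. Capitals mark GGGCGG, the core of the box bound by Sp1-type factors, in Prnp, and ACAAAG, a core bound by SOX proteins, in Opalin, each searched on both strands (as GGGCGG or CCGCCC and as ACAAAG or CTTTGT).
Prnp: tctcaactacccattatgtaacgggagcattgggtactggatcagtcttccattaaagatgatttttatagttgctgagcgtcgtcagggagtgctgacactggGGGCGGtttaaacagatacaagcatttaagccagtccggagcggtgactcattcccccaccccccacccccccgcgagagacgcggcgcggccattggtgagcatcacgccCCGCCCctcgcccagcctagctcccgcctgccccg
Opalin: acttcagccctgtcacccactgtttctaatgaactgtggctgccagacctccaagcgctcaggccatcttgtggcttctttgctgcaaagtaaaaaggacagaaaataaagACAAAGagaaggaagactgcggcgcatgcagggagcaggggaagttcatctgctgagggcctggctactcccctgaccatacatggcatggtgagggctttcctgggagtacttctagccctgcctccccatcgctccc
The Prnp window held 2 matches of GGGCGG, a motif found in 32.7% of all 32851 RefSeq windows of this length. The Opalin window held 1 match of ACAAAG, which 16.5% of all windows held. A match describes the letters and is not a measured binding site.

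Prnp (chromosome 2, 131909928 to 131938429) had 1065, 989, 1041 and 998 CPM in the WT libraries. In PS19_p16KO it had 1924, 1904, 1872 and 1786 CPM. All PS19_p16KO libraries lay above all WT libraries, with a log2 difference of 0.87 ± 0.066 (1.83-fold, adjusted p = 2.61e-07). The p16KO libraries had 1061 to 1077 CPM and the PS19 libraries 1502 to 1965 CPM, so both groups with the transgene were high. Whether reads of the transgene are counted at Prnp was not tested, and Prnp shares its strand and position with the readthrough gene Prn, so reads of these genes are uncertain.

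Lamr1-ps1 (chromosome 2, 131904086 to 131904959), a processed pseudogene whose end lies 4.969 kb before the start of Prnp, was split among the groups in the same way. It had 1, 1, 1 and 0 counts in the WT libraries and 69, 64, 66 and 55 in the PS19_p16KO libraries. The ratio of the summed counts, scaled for depth, was 86.9 (95% counting interval 29.4 to 424), and the adjusted p was 3.51e-08. The p16KO libraries summed to 6 counts and the PS19 libraries to 220, so this gene too was high only where the transgene was present. As a copy of an expressed gene, its reads are uncertain.

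4930590L14Rik (chromosome 3, 140951876 to 140953247), a long intergenic noncoding RNA, had no count in any WT library. It had 17, 25, 8 and 17 counts in the PS19_p16KO libraries (adjusted p = 0.0021). Against a floor of 3 counts over the WT group this is at least 22.9-fold higher. The PS19 libraries held 58 counts in all and the p16KO libraries 2, which is the same split by transgene as at Prnp.

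Gbp2b (chromosome 3, 142594847 to 142619179), a member of the interferon-induced guanylate-binding proteins, lies on the same chromosome, 1.64 Mb from 4930590L14Rik, but was split differently among the groups. It had 0, 0, 0 and 3 counts in WT and 27, 22, 36 and 21 in PS19_p16KO, a ratio of 36.3 (95% counting interval 12.1 to 179, adjusted p = 0.00441). The p16KO libraries held 87 counts and the PS19 libraries 161, so that WT alone was low. None of the 27 tested genes of the interferon response list, which does not hold Gbp2b, passed in PS19_p16KO against WT. The guanylate-binding proteins are a family of near copies, so the split of reads between them is uncertain.

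Opalin (chromosome 19, 41061710 to 41077113), which encodes a membrane protein of myelinating oligodendrocytes, had 14.5, 13.5, 11.9 and 11.8 CPM in WT. In PS19_p16KO it had 19.99, 19.99, 17.1 and 26.0 CPM. The groups did not overlap, with a log2 difference of 0.68 ± 0.11 (1.61-fold, adjusted p = 0.0147). The p16KO libraries had 16.5 to 17.7 CPM and the PS19 libraries 15.1 to 18.8 CPM, both above every WT library, but neither group passed against WT (log2 differences 0.39 and 0.37). Without WT library 3, WT library 4 or PS19_p16KO library 1, Opalin did not pass (adjusted p = 0.0967, 0.0994 and 0.0538).

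Gpatch11 (chromosome 17, 78835567 to 78848308), which encodes a protein with a glycine-rich domain found in RNA-processing factors, was the only gene that passed as lower. It had 47.2, 45.8, 41.0 and 39.6 CPM in WT and 31.6, 27.1, 27.7 and 33.3 CPM in PS19_p16KO, with no overlap. The log2 difference was -0.54 ± 0.089 (adjusted p = 0.0209). The PS19 libraries had 37.9 to 43.5 CPM, near WT, and PS19_p16KO was lower than PS19 (log2 difference -0.43, adjusted p = 0.0234). The p16KO libraries had 26.7 to 36.6 CPM, all below WT, without passing (log2 difference -0.50, adjusted p = 0.0856). Leaving out WT library 2 or PS19_p16KO library 1, 2 or 3 ended this call (adjusted p = 0.125, 0.0555, 0.0984 and 0.101).

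**Figure D1:**
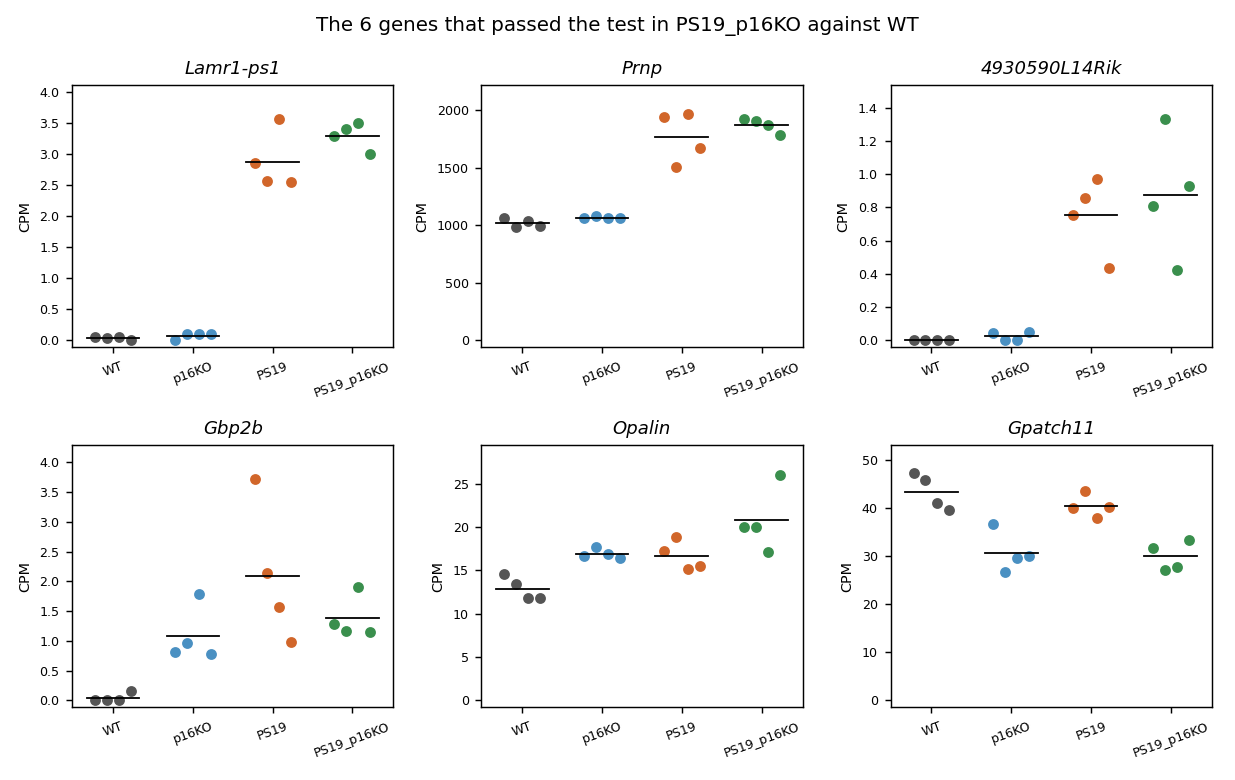
CPM of each gene that passed the test, 1 panel per gene, with 1 point per library and a line at the mean of the 4 libraries of a group. Lamr1-ps1, Prnp and 4930590L14Rik are high in both groups with the transgene, Gbp2b is low in WT alone, and Gpatch11 is low in the p16KO and PS19_p16KO libraries.

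The genes next in order of unadjusted p did not pass, and some of them showed the same kinds of split. Arhgef19, a guanine nucleotide exchange factor, had 17.0, 8.91, 11.4 and 10.8 CPM in WT and 18.2, 21.3, 20.9 and 22.7 CPM in PS19_p16KO, a log2 difference of 0.79 (95% interval 0.49 to 1.09, adjusted p = 0.0736). The groups did not overlap, and the p16KO libraries, at 19.2 to 23.6 CPM, were also above WT, whereas PS19 libraries had 10.1 to 13.003 CPM. Against PS19, PS19_p16KO was higher in Arhgef19 (log2 difference 0.85, adjusted p = 0.00947). Fabp5, a fatty acid-binding protein, had 33.5 to 40.6 CPM in WT, 49.98 to 64.2 CPM in PS19_p16KO, 50.3 to 71.8 CPM in p16KO and 37.9 to 45.9 CPM in PS19, with an adjusted p of 0.1 against WT. Cox7a2l, a factor of respiratory supercomplex assembly, had 65.2 to 71.4 CPM in WT and 74.2 to 94.3 CPM in PS19_p16KO (log2 difference 0.37, adjusted p = 0.1), and it was higher in PS19_p16KO than in PS19 (log2 difference 0.40, adjusted p = 0.0171).

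Pdlim2, a cytoskeletal adaptor that also directs proteins to degradation, had 4.64, 4.95, 4.48 and 4.94 CPM in WT and 9.07, 8.13, 8.00 and 8.90 CPM in PS19_p16KO, without overlap (log2 difference 0.84, adjusted p = 0.0736). It was higher in PS19 than in WT, which shares these WT libraries (log2 difference 0.76, adjusted p = 0.0151). Tnnt1, a troponin subunit, had 0.365 to 0.430 CPM in WT and 0.901 to 1.26 CPM in PS19_p16KO (log2 difference 1.43, adjusted p = 0.1), and it rose in PS19 (log2 difference 1.34, adjusted p = 0.021). In these genes WT alone was low in the means of the 4 groups. Unc5c, a netrin receptor of axon guidance that lies between 4930590L14Rik and Gbp2b, had 73.8, 84.9, 70.7 and 79.8 CPM in WT and 53.3, 67.7, 45.1 and 53.3 CPM in PS19_p16KO, again without overlap (log2 difference -0.50, 95% interval -0.69 to -0.30, adjusted p = 0.074).

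Galnt6, a glycosyltransferase, had 13.4, 12.5, 12.3 and 10.8 CPM in WT and 15.7, 21.3, 15.9 and 23.5 CPM in PS19_p16KO. These did not overlap, and the log2 difference of 0.64 (95% interval 0.35 to 0.93) did not pass (adjusted p = 0.13). Frmd4b, a scaffold protein, had 0.37 (0.20 to 0.53) and Fubp1, a nucleic acid-binding protein, -0.28 (-0.40 to -0.15). Pink1, a kinase of mitochondrial quality control, had a log2 difference of 0.22 (95% interval 0.12 to 0.33), Dgat2, an enzyme of triglyceride synthesis, 0.27 (0.16 to 0.39), and Hsd11b1, which regenerates active glucocorticoid, 0.34 (0.19 to 0.48). Trpc4, a cation channel, had -0.30, Plxnc1, a semaphorin receptor, -0.29, and Dync2h1, the motor of retrograde ciliary transport, -0.35. None of these passed, with adjusted p-values from 0.0799 to 0.243. Gm6166, a predicted gene named after its values were seen, had 5.89, 7.56, 7.12 and 7.62 CPM in WT and 0.525, 0.319, 0.318 and 0.218 CPM in PS19_p16KO, the largest gap among these. Its summed counts were 558 in WT, 96 in p16KO, 637 in PS19 and 27 in PS19_p16KO, so both knockout groups were low, but p16KO library 3 held 77 of the 96. The scaled ratio was 0.0497 (95% counting interval 0.0324 to 0.0731), and the gene did not pass in the fit of all 4 groups (adjusted p = 0.0887). It passed when PS19_p16KO and WT alone were fitted (adjusted p = 1.735e-06). It also passed without robust dispersion (0.0132) and with the choroid plexus score as a covariate (0.0452).

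Several of these genes lie near each other, so the windows of 5 Mb on each side of 5 genes were counted. Genes that passed, whose small p was known beforehand, are included in these counts. They number 1 at Gpatch11, 2 at Prnp, 2 at Gbp2b, 1 at Opalin and 0 at Cdkn2a. Around Gpatch11, 10 of 46 tested genes (21.7%) had an unadjusted p under 0.05, against 8.15% of all genes. Heatr5b, a factor of vesicle transport whose end lies 0.203 kb from Gpatch11, had 62.1 to 75.0 CPM in WT and 49.0 to 61.9 CPM in PS19_p16KO (log2 difference -0.30, adjusted p = 0.175), and Cox7a2l lies within the window. Around Cdkn2a the share was 8 of 21 (38.1%), 6 lower and 2 higher in PS19_p16KO. Klhl9, a ubiquitin ligase adaptor 552 kb from Cdkn2a, had 118, 126, 118 and 118 CPM in WT and 97.7, 99.98, 102 and 105 CPM in PS19_p16KO. These did not overlap, and the log2 difference of -0.25 (95% interval -0.35 to -0.15) did not pass against WT (adjusted p = 0.0736), but it passed against PS19 (-0.24, adjusted p = 0.0187). Mtap, the methionine salvage enzyme next to Cdkn2a, had a log2 difference of -0.43 (adjusted p = 0.554), and Tusc1 had 0.43 (adjusted p = 0.494). The shares around Prnp (14 of 105, 13.3%), Gbp2b (5 of 53, 9.43%) and Opalin (6 of 104, 5.77%) were closer to that of all genes. The cause was not tested.

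None of the 24 disease-associated microglia genes passed in PS19_p16KO against WT. Their 95% intervals were wide, and 9 of the 24 lay within 1.5-fold, against 72.2% of all genes. The median log2 difference was 0.12, where the median of all genes was 0.0066. An unadjusted p under 0.05 was reached by 1 of the 24. In PS19 against WT 15 of the 24 rose, where 1.56% of all genes did, and the median was 0.99. The count was 2 to 19 over the alternatives (other settings and tools, and single libraries left out). The test of the difference between both transgenic groups called 10 of the 24 lower in PS19_p16KO than in PS19 (0.776% of all genes were) and none higher. That count was 0 when only these 8 libraries were fitted, 1 with limma-voom and 7 to 18 when single libraries were left out. In bulk RNA, fewer cells of a type and less RNA per cell cannot be told apart. Among 22 lists tested again under 20 alternatives, no gene passed in PS19_p16KO against WT except myelin genes, C1ql2, Dlx6os1 and Mcam.

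Clec7a, a phagocytic receptor of activated microglia, had 0.886, 1.49, 1.27 and 0.913 CPM in WT and 1.67, 1.06, 2.12 and 0.874 CPM in PS19_p16KO. These ranges overlap, while the PS19 libraries had 23.3, 22.4, 4.86 and 12.8 CPM. The log2 difference from WT was 0.33 (95% interval -0.66 to 1.32) in PS19_p16KO and 3.79 in PS19 (adjusted p = 0.000393), and PS19_p16KO against PS19 gave -3.46 (adjusted p = 0.00267). Itgax, an integrin of this state, had 0.896 CPM ± 0.174 (SD, n = 4) in WT, 0.966 ± 0.646 in PS19_p16KO and 16.8 ± 10.2 in PS19. Its interval against WT ran from -1.31 to 1.54, which is wider than 1.5-fold on each side. Cst7, a cathepsin inhibitor, had 0.208, 0.225, 0.0527 and 0.268 CPM in WT and 0.286, 0.319, 0.689 and 0.382 CPM in PS19_p16KO, which did not overlap, and 0.971 to 9.87 CPM in PS19. Its log2 difference from WT was 1.11 (95% interval -0.55 to 2.78).

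Ccl6, a chemokine of myeloid cells, had 0.938, 1.35, 1.001 and 0.966 CPM in WT and 2.43, 1.54, 2.97 and 1.04 CPM in PS19_p16KO, where libraries 1, 2 and 3 lay above WT and library 4 within it. The log2 difference was 0.90 (95% interval 0.16 to 1.64, adjusted p = 0.568), and in PS19 it was 3.07 (adjusted p = 9.92e-05). Cd52, a small surface glycoprotein of leukocytes, had 0.60 (95% interval -0.28 to 1.49) in PS19_p16KO and 2.81 in PS19. Cd68, a lysosomal membrane protein of phagocytes, had 4.85, 6.30, 4.43 and 4.51 CPM in WT and 5.44, 5.10, 6.25 and 5.30 CPM in PS19_p16KO, which overlap fully, and 7.61 to 21.5 CPM in PS19. Trem2, the lipid receptor required for this state, and its adaptor Tyrobp had log2 differences from WT of 0.17 (95% interval -0.39 to 0.73) and 0.23 (-0.27 to 0.72), against 1.56 and 1.65 in PS19. Axl, a receptor that binds dying cells, had 49.9, 47.7, 50.6 and 50.7 CPM in WT and 55.8, 51.4, 51.5 and 52.6 CPM in PS19_p16KO. The groups did not overlap although they differed by only 0.087 on the log2 scale (95% interval -0.16 to 0.33). Spp1, Gpnmb, Lgals3, Igf1 and Lpl were the 5 of 24 with a negative difference, from -0.44 to -0.079, and none of the 5 passed.

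**Figure D2:**
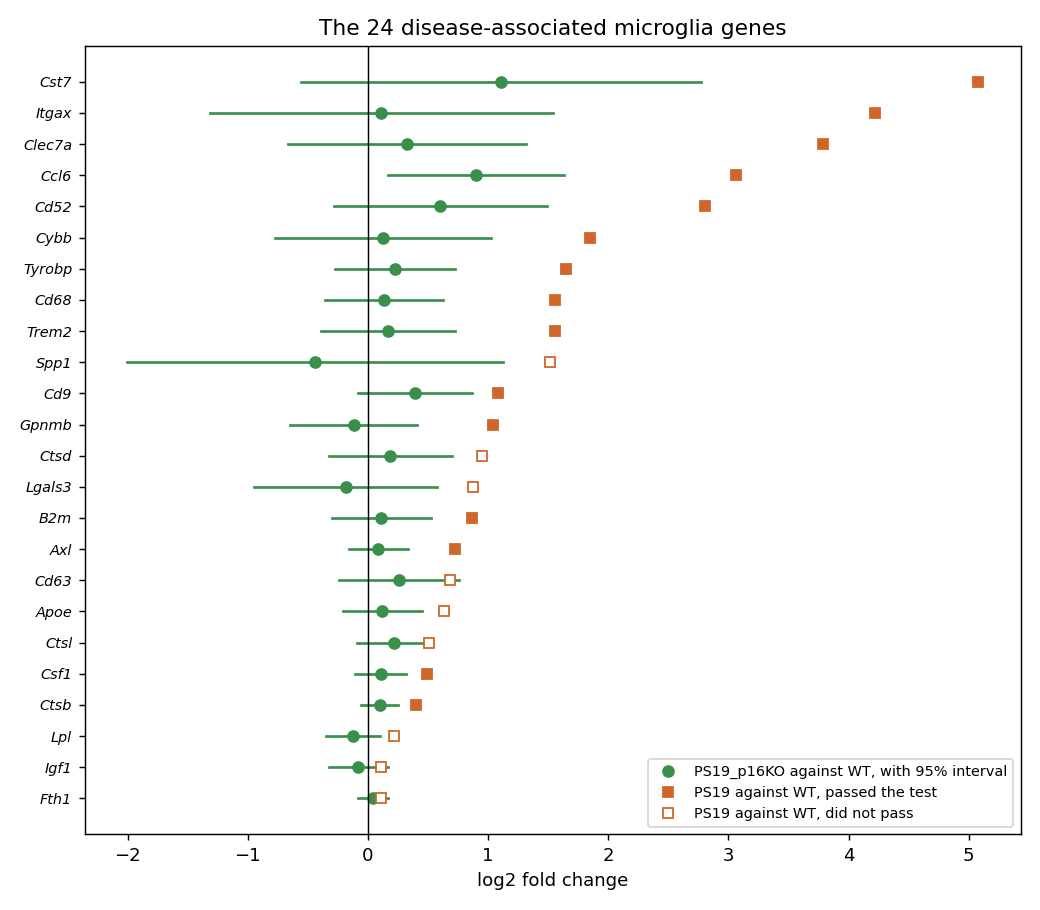
Log2 fold changes of the 24 disease-associated microglia genes against WT. Circles with lines are PS19_p16KO and its 95% interval, squares are PS19, filled where PS19 passed the test, and the 15 filled squares lie to the right of the circles.

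The other microglial lists also held no gene that passed in PS19_p16KO. Of 14 general microglia and macrophage markers none passed in PS19_p16KO (median 0.26), 12 rose in PS19 (median 1.13), and 6 were lower in PS19_p16KO than in PS19. Over the alternatives these counts ran from 2 to 14 and from 0 to 12. Of all genes 1.56% rose in PS19 and 0.776% were lower in PS19_p16KO than in PS19. Against WT, 13 of the 14 had a positive difference in PS19_p16KO (52% of all genes did). For 3 of the 14 the libraries did not overlap, each time above WT (4.09% of all genes did not overlap, above or below). An interval within 1.5-fold was found for 4 of the 14, against 72.2% of all genes. Border-associated macrophage genes went the other way, with a positive difference in 0 of the 7 tested (median -0.48). No gene of these 7 passed, and 1 had an interval within 1.5-fold. Fcgr3, an antibody receptor, had 5.11, 4.23, 5.69 and 5.32 CPM in WT and 7.59, 7.92, 7.31 and 7.15 CPM in PS19_p16KO, so all 4 lay above WT (log2 difference 0.56, 95% interval 0.17 to 0.96, adjusted p = 0.568). Laptm5, a lysosomal protein of leukocytes, had 0.22 in PS19_p16KO and 1.12 in PS19, and Ly86, a partner of a Toll-like receptor homologue, 0.16 and 1.67. Both were lower in PS19_p16KO than in PS19 (adjusted p = 0.00963 and 0.00947). Spi1, the transcription factor that maintains the lineage, had 0.48 (95% interval 0.075 to 0.88) and 0.94, and PS19_p16KO against PS19 did not pass (adjusted p = 0.426).

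Of 14 homeostatic microglia genes none passed in PS19_p16KO, and 12 of the 14 had an interval within 1.5-fold. A positive difference from WT was found for 12 of the 14 (52% of all genes). An unadjusted p under 0.05 was reached by 3 (8.15% of all genes), and 2 did not overlap, both above WT (4.09% of all genes, above or below). Cx3cr1, the fractalkine receptor, had 0.19 (95% interval -0.048 to 0.42) in PS19_p16KO and 0.65 in PS19, and P2ry12, a purinergic receptor, 0.18 (0.0012 to 0.35) and -0.011. Crybb1, a crystallin of resting microglia, fell in PS19 (log2 difference -1.30, adjusted p = 0.00887). In PS19_p16KO its difference was -0.53 (95% interval -1.03 to -0.019), which lies between WT and PS19 and passed against neither (adjusted p against PS19 = 0.253).

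Over the microglial, complement and lysosomal lists the smallest unadjusted p was that of C3ar1. This receptor of the C3a fragment had 1.199, 1.22, 0.896 and 1.23 CPM in WT and 1.72, 1.86, 2.70 and 2.51 CPM in PS19_p16KO, with no overlap. The log2 difference was 0.94 (95% interval 0.45 to 1.44), which did not pass (adjusted p = 0.315). The p16KO libraries had 1.74 to 2.24 CPM, also above every WT library, and the PS19 libraries 4.48 to 9.25 CPM. PS19_p16KO was lower than PS19 (log2 difference -1.73, adjusted p = 0.0011). C4b, the complement component raised in reactive astrocytes and oligodendrocytes, had 59.6, 57.9, 68.8 and 49.1 CPM in WT, 76.5, 63.0, 69.9 and 76.0 CPM in PS19_p16KO and 107 to 311 CPM in PS19. WT and PS19_p16KO overlap, with a log2 difference of 0.28 (95% interval -0.30 to 0.86), and Itgb2, a chain of the complement receptor, had 0.16 (-0.30 to 0.61). Over the 15 complement genes none passed in PS19_p16KO and 6 rose in PS19 (1.56% of all genes did), with medians of 0.25 and 0.73. None of the 15 had an interval within 1.5-fold of WT. The PS19_p16KO median was 0.11 without PS19_p16KO library 3 or WT library 4, and the count in PS19 ran from 1 to 7 over the alternatives.

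No lysosomal gene passed in PS19_p16KO (median 0.15, or 0.085 without PS19_p16KO library 3). An interval within 1.5-fold was found for 16 of 22, a share like that of all genes. In PS19 13 of 22 rose (median 0.53), where 1.56% of all genes did, a count of 0 to 18 over the alternatives. Hexa, a subunit of hexosaminidase, had 0.16 (95% interval -0.048 to 0.37) in PS19_p16KO and 0.61 in PS19, and Ctsh, a cathepsin, -0.069 (-0.44 to 0.30) and 1.05. Both were lower in PS19_p16KO than in PS19 (adjusted p = 0.0324 and 0.00594). Of the 27 interferon response genes 2 rose in PS19 (1.56% of all genes did), with a median of 0.80 against 0.13 in PS19_p16KO. The latter had the other sign without PS19_p16KO library 1 (-0.085) or library 3 (-0.014) and was 0.33 without WT library 2, and 6 of the 27 had an interval within 1.5-fold. Ifit3b, an interferon-induced protein, had 2.87, 3.15, 3.27 and 2.31 CPM in WT and 6.06, 3.61, 3.34 and 4.04 CPM in PS19_p16KO, all 4 above WT. Its log2 difference was 0.56 (95% interval 0.11 to 1.01), against 1.28 in PS19 (adjusted p = 0.00227). The difference between both transgenic groups, -0.72, did not pass (adjusted p = 0.13). Of 15 genes of class I presentation and 8 of class II presentation none passed in PS19_p16KO, with medians of 0.21 and 0.20 against 0.62 and 1.21 in PS19. The class II median was -0.16 without PS19_p16KO library 3, and intervals within 1.5-fold were found for 5 of the 15 and 1 of the 8.

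Chemokine and senescence genes were likewise not called against WT. Ccl9, a chemokine of myeloid cells, had 0.469, 0.3602, 0.580 and 0.161 CPM in WT and 0.811, 1.12, 1.06 and 0.764 CPM in PS19_p16KO, all 4 above WT (log2 difference 1.24, 95% interval 0.36 to 2.12, adjusted p = 0.568). Cxcl10, an interferon-induced chemokine, had 0.072 (-0.75 to 0.89), an interval of more than 1.5-fold on each side. Of 25 tested genes of senescence and its secreted factors 15 had an interval within 1.5-fold, a smaller share than over all genes. In PS19 5 of them rose (1.56% of all genes did), and 5 were lower in PS19_p16KO than in PS19 (0.776% of all genes were). These counts ran from 1 to 8 and from 0 to 9 over the alternatives. The median of the list was 0.066 in PS19_p16KO and -0.060 without the 3 libraries richest in choroid plexus RNA. Il1b, the cytokine interleukin-1 beta, had 2.55, 3.11, 2.85 and 3.01 CPM in WT and 2.62, 1.28, 1.70 and 1.31 CPM in PS19_p16KO, where libraries 2, 3 and 4 lay below WT. Its log2 difference was -0.73 (-1.35 to -0.11), beside -0.78 in PS19, and neither passed (adjusted p = 0.578 and 0.319). Cdkn1a, the cell-cycle inhibitor p21, had 6.15, 5.63, 7.22 and 7.78 CPM in WT and 5.87, 4.68, 8.32 and 8.68 CPM in PS19_p16KO, which overlap (log2 difference 0.041, 95% interval -0.41 to 0.49). Plau, a plasminogen activator, had 0.21 (-0.34 to 0.75) in PS19_p16KO and 1.31 in PS19. Ccnd1, a G1 cyclin, had 0.44 (0.09 to 0.80) and Atf3, a stress-induced transcription factor, 0.57 (-0.044 to 1.18). Neither passed.

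**Figure D3:**
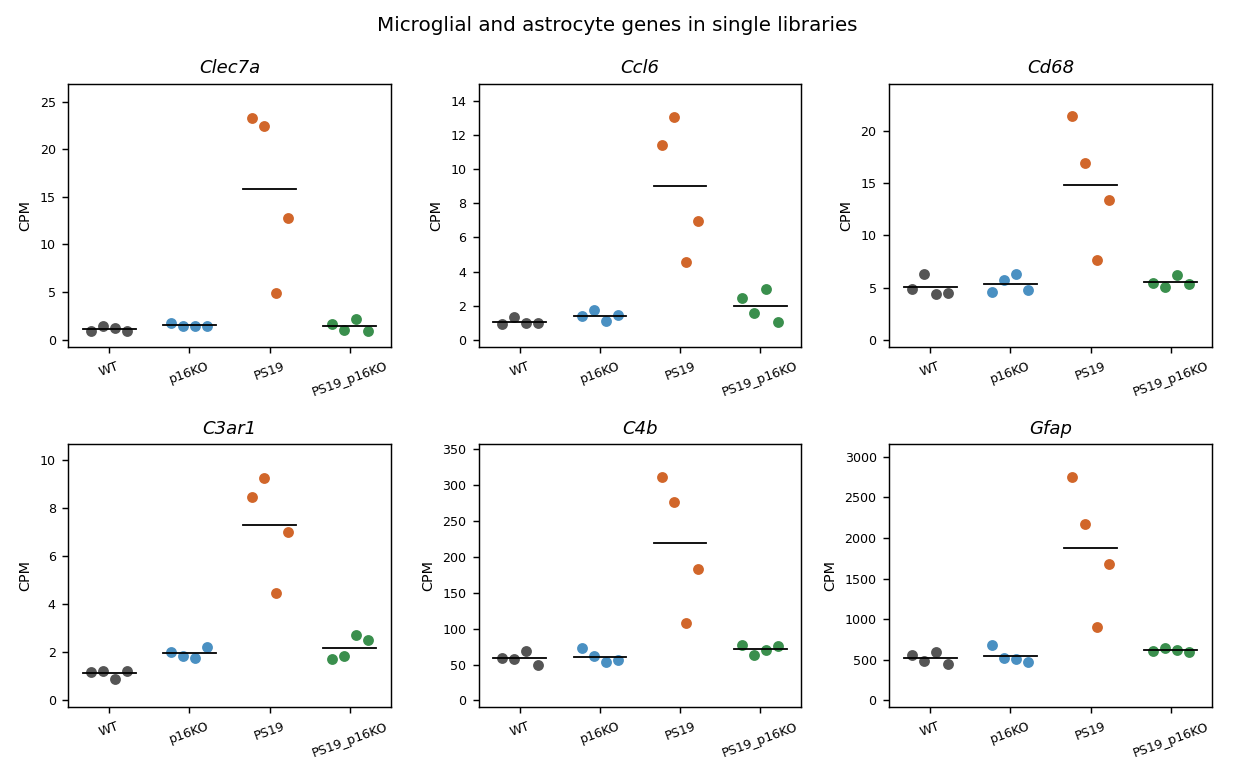
CPM of 5 microglial, myeloid or complement genes and of Gfap, with 1 point per library and a line at the mean of each group of 4. The PS19_p16KO libraries overlap WT except for C3ar1, where they lie between 1.72 and 2.70 CPM against at most 1.23 CPM in WT, and library 3 of PS19 is the lowest of its group in every panel.

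No reactive astrocyte gene passed in PS19_p16KO against WT. Gfap, the intermediate filament of astrocytes, had 563, 484, 599.7 and 448 CPM in WT and 607, 651, 626 and 596 CPM in PS19_p16KO. Library 3 of WT lay within the PS19_p16KO range, and the log2 difference was 0.24 (95% interval -0.31 to 0.80). The PS19 libraries had 2749.8, 2173, 898 and 1680.5 CPM, all above both groups, and PS19_p16KO was lower than PS19 (log2 difference -1.60, adjusted p = 0.0171). Osmr, a cytokine receptor of reactive astrocytes, had 0.36 (-0.21 to 0.92) against 1.92 in PS19, and Ggta1, a glycosyltransferase, 0.09 (-0.45 to 0.63) against 1.30. Cd44, a hyaluronan receptor, was the only gene of the 12 tested whose libraries did not overlap (4.09% of all genes did not). It had 5.01, 4.41, 5.57 and 4.204 CPM in PS19_p16KO, below 6.46, 5.81, 6.06 and 5.74 CPM in WT (log2 difference -0.33, 95% interval -0.90 to 0.25). Over the 12 genes the median was 0.051, and 2 had an interval within 1.5-fold. In PS19 4 of the 12 rose (median 0.84), where 1.56% of all genes did, a count of 0 to 7 over the alternatives. All 14 astrocyte identity genes had intervals within 1.5-fold of WT.

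In these microglial and astrocyte lists library 3 of PS19 was near the other groups. The score of the disease-associated microglia genes, a mean of z-scaled log2 CPM, was 2.08, 1.78, -0.0017 and 1.17 in the PS19 libraries, -0.34, -0.69, 0.15 and -0.48 in PS19_p16KO and -0.51, -0.65, -0.42 and -0.67 in WT. PS19_p16KO overlaps WT, and its library 3, which holds the choroid plexus RNA, had the highest score of both groups. The part of that RNA in the score was not tested.

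The median difference of cholesterol synthesis genes had opposite signs in both transgenic groups. None of 21 passed in PS19_p16KO, all 21 had a positive difference where 52% of all genes did, and the median was 0.11. In PS19 the median was -0.23 and 2 of 21 fell, where 9 of all genes (0.055%) did, a count of 0 to 5 over the alternatives. In PS19_p16KO against PS19, 3 of 21 were higher, where 0.0489% of all genes were, a count of 0 to 11 over the alternatives. Fdps, which makes farnesyl diphosphate, had 30.1, 33.5, 29.0 and 27.9 CPM in WT, 32.3, 27.7, 33.6 and 33.8 CPM in PS19_p16KO and 22.4, 22.4, 24.1 and 23.95 CPM in PS19. WT and PS19_p16KO overlap while every PS19 library is lower, with a log2 difference of -0.38 from WT (adjusted p = 0.0175) and of 0.46 between PS19_p16KO and PS19 (adjusted p = 0.0109). Msmo1, a sterol oxidase, had 0.028 (95% interval -0.16 to 0.22) in PS19_p16KO and -0.40 in PS19 (adjusted p = 0.0332). Insig1, the feedback regulator held in the endoplasmic reticulum, had 0.24 (0.028 to 0.46) against WT and was higher than in PS19 (log2 difference 0.50, adjusted p = 0.0278). The largest difference from WT was that of Mvd, an enzyme of the mevalonate pathway, at 0.35 (0.086 to 0.61), and 20 of the 21 had an interval within 1.5-fold.

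**Figure D4:**
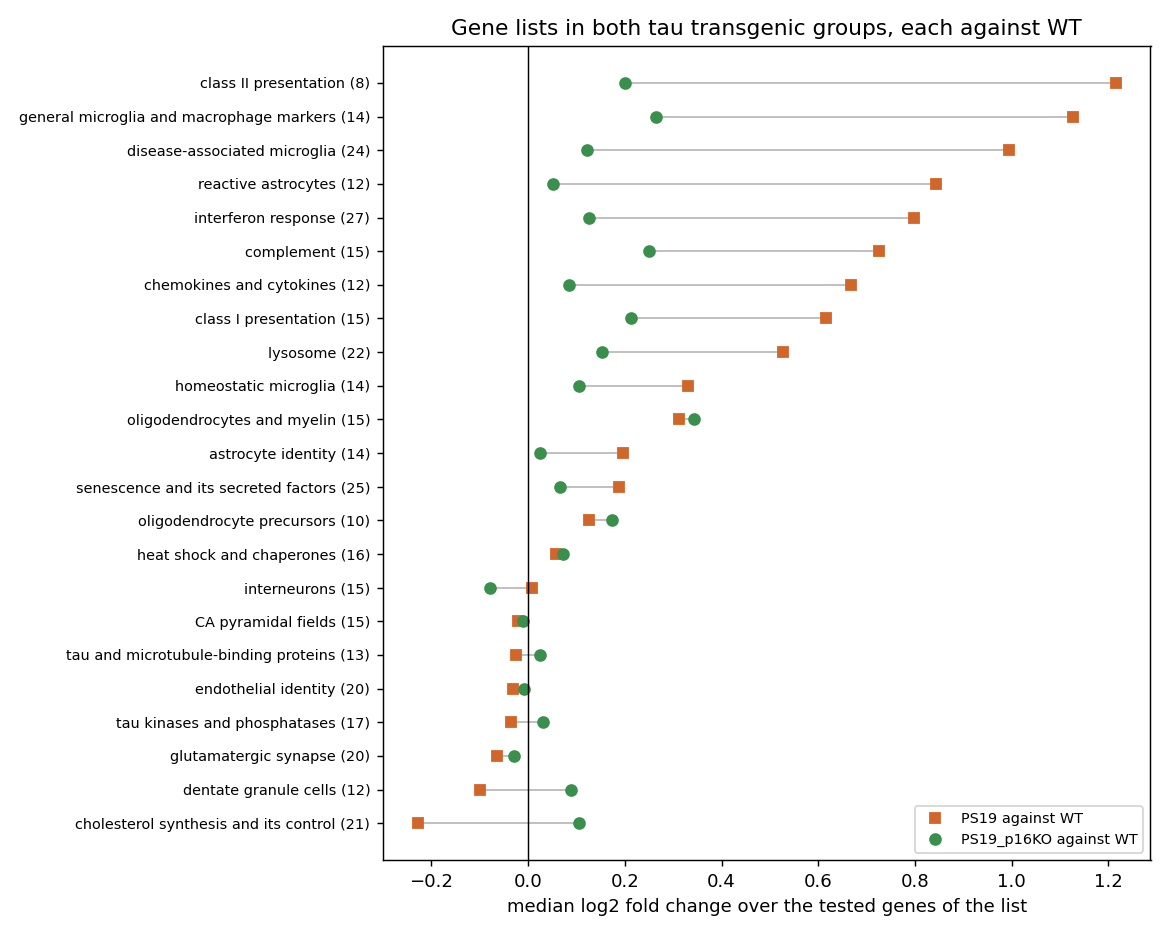
Median log2 fold change over the tested genes of 23 lists, with the number of genes in parentheses, for PS19 against WT (squares) and PS19_p16KO against WT (circles). The circles of the microglial, lysosomal and reactive astrocyte lists lie between 0.051 and 0.26, and the myelin list is the one whose circle lies at the PS19 square or beyond it among those with a PS19 median above 0.3.

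Oligodendrocyte genes had median differences from WT of like size in PS19_p16KO and in PS19. Of 15 genes 1 passed (Opalin), where 0.0366% of all genes did. All 15 had a positive difference (52% of all genes did), with a median of 0.34. An unadjusted p under 0.05 was reached by 14 of the 15, against 8.15% of all genes. An interval within 1.5-fold was found for 8 of the 15, against 72.2% of all genes. The medians were 0.31 in PS19 and 0.31 in p16KO, with all 15 positive in each, where 48.3% and 49.7% of all genes were, and none called. In PS19 up to 7 of the 15 were called higher over the alternatives. In p16KO against WT no gene of the 16372 passed in edgeR (0%), although 653 (3.99%) reached an unadjusted p under 0.05. DESeq2 called 18 genes there and limma-voom called 9. These 3 comparisons share the WT libraries. Cldn11, a tight-junction protein of myelin, had 128, 75.5, 82.0 and 77.8 CPM in WT and 122, 127, 115 and 138 CPM in PS19_p16KO. Library 1 of WT lay within the PS19_p16KO range and the other 3 below it, and the log2 difference of 0.47 (95% interval 0.15 to 0.78) did not pass (adjusted p = 0.568).

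Apart from Opalin, WT library 1 reached into the PS19_p16KO range in each of the 15 genes, and in Mobp, a basic protein of myelin, WT library 3 did so too. Mog, an outer myelin glycoprotein, had 39.1, 27.0, 28.9 and 25.1 CPM in WT and 40.4, 42.4, 35.0 and 45.1 CPM in PS19_p16KO, a log2 difference of 0.44 (95% interval 0.18 to 0.70). Cnp, an enzyme of noncompact myelin, had 278, 211, 225 and 213 CPM and 295, 295, 262 and 345 CPM (0.37, 0.17 to 0.57). Mbp, the basic protein of compact myelin, had 0.31 (0.053 to 0.56). Pllp, a proteolipid of myelin rafts, and Gltp, a glycolipid transfer protein, are not on the list and did not pass either, at 0.50 (0.29 to 0.71) and 0.40 (0.21 to 0.58), and both rose in PS19 (adjusted p = 0.0212 and 0.00281). Of the 15 genes, 11 matched RefSeq promoter windows, 16 in all, and 7 of the 16 (43.8%) held ACAAAG, against 16.5% of all windows. These 7 windows belong to 5 of the 11 genes, so some genes are counted more than once. The share of all genes with a match was not counted, and enrichment was not tested. The other motif, GGGCGG, was held by 3 of the 16 windows (18.8%), against 32.7% of all windows.

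The myelin score was 0.39, -1.66, -1.27 and -1.66 in the WT libraries and 0.54, 0.56, -0.31 and 1.29 in PS19_p16KO, so that WT library 1 lay within PS19_p16KO. WT library 1 is the WT library with choroid plexus RNA, and PS19_p16KO library 3, the lowest of its group in the myelin score, is the one with the most. The choroid plexus scores were 1.13, -0.50, -0.37 and -0.67 in WT and -0.50, -0.65, 2.35 and -0.51 in PS19_p16KO. All 15 choroid plexus genes had a positive difference (median 1.88) and none passed. Without PS19_p16KO library 3 this median was -2.19. Without WT library 1, 5 of the 15 myelin genes passed, all higher, among them Cldn11, Cnp, Mog and Opalin, and without it, PS19_p16KO library 3 and p16KO library 4, a choice made after seeing the data, 9 passed. Without WT library 3, WT library 4 or PS19_p16KO library 1, none passed.

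**Figure D5:**
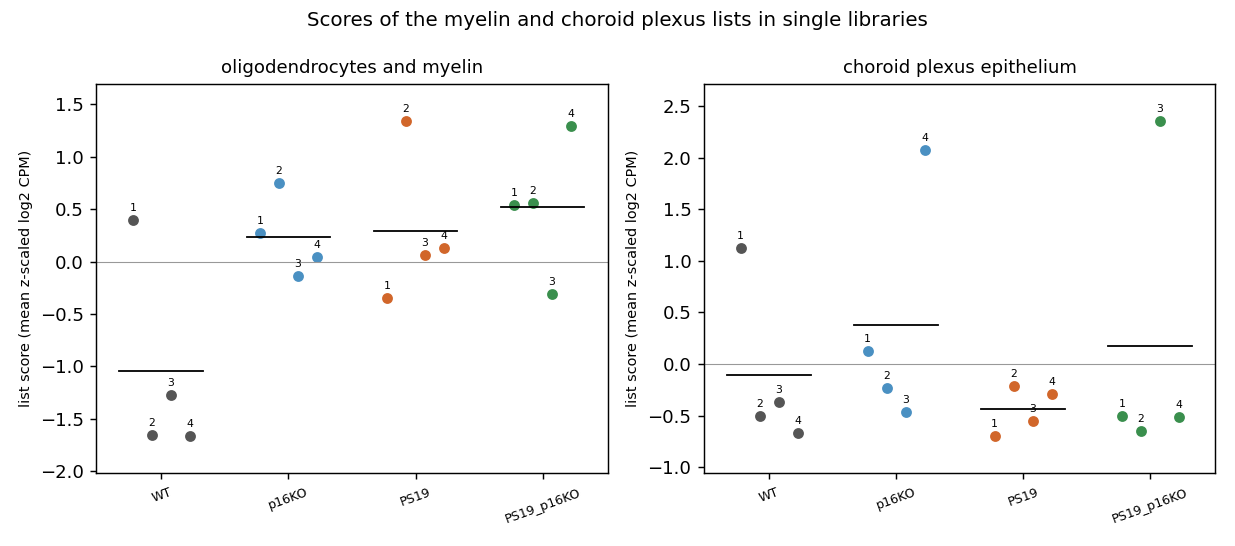
Scores per library, the mean z-scaled log2 CPM over the 15 genes of each list, with replicate numbers beside the points and a line at the mean of each group. WT libraries 2, 3 and 4 lie below all others in the myelin score, at or below -1.27, and WT library 1, p16KO library 4 and PS19_p16KO library 3 lie above all others in the choroid plexus score.

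No gene of the neuronal lists passed in PS19_p16KO. All 20 genes of the glutamatergic synapse list had an interval within 1.5-fold (median -0.03), as did all 15 of interneurons (median -0.079), all 13 of tau and microtubule-binding proteins and all 17 of tau kinases and phosphatases. Of 12 dentate granule cell genes 11 lay within it, and C1ql2, a synaptic organiser of mossy fibres, had 126, 103, 143 and 132 CPM in WT and 165, 159.9, 168 and 163 CPM in PS19_p16KO. These did not overlap, and the log2 difference of 0.38 (95% interval 0.21 to 0.56) did not pass (adjusted p = 0.175). Within 1.5-fold lay 11 of 15 genes of the CA pyramidal fields and 15 of 20 of neuropeptides and their receptors. Of 11 genes of neurogenesis and proliferation 6 did, and of 16 immediate-early genes 5 did, against 72.2% of all genes. Prokr2, a prokineticin receptor, and Npy1r, a neuropeptide Y receptor, fell in PS19 (adjusted p = 0.0447 and 0.0419). In PS19_p16KO Prokr2 had 5.25, 4.84, 4.13 and 4.75 CPM against 5.21, 7.70, 7.33 and 6.34 CPM in WT (log2 difference -0.49, 95% interval -0.78 to -0.19, adjusted p = 0.494), beside -0.57 in PS19. Npy1r had -0.16 (-0.34 to 0.023) in PS19_p16KO and -0.35 in PS19. Of 20 endothelial identity genes none passed and 17 lay within 1.5-fold (median -0.0081), and of 13 genes of pericytes and smooth muscle none passed and 4 lay within it. Among the latter Mcam, an adhesion molecule of vessels, had 0.40 (0.19 to 0.62, adjusted p = 0.341).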

How the data were processed

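Bulk RNA of 16 hippocampus samples was measured, and the 4 PS19_p16KO and 4 WT samples were compared. The table that the authors deposited holds raw counts for 49671 genes and 92 ERCC transcripts. The submitters' processing notes name GRCm38 and, without roles, the tools STAR 2.5.2b, Trimmomatic 0.36, Subread 1.5.2, featureCounts and DESeq2. Which annotation release and strand setting were used was not given in the sources used here. Reads of overlapping genes may therefore be shared. Symbols and 1-based positions came from a GENCODE annotation of GRCm38 by Ensembl identifier (49412 rows matched), and promoter windows from RefSeq.

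Depth was 18485552 to 22311322 gene counts per library, and intervals of count ratios cover counting error only. ERCC rows, 0.574% to 0.856% of counts in the 8 libraries, were left out. Replicates differed by more than sampling noise in every pair. All 16 libraries entered a single fit in edgeR 4.0.16 under R 4.3.3 (filterByExpr with a minimum count of 10, TMM, robust quasi-likelihood, 1 mean per group, Benjamini-Hochberg over all genes, threshold 0.05). The standard error came from the F statistic. List scores used log2 CPM with a prior count of 2. The procedure was tested on simulated counts.

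The comparison, the 34 gene lists and the genes followed were chosen with earlier results of these data known. Named genes were Cdkn2a, Mapt and Prnp, the called genes, the genes of smallest unadjusted p above a mean log2 CPM of 0 without predicted or unnamed models up to 24, and the 3 members of each list with the smallest p in PS19_p16KO against WT and in PS19 against WT. Gm6166, Ttr, Mtap, Tusc1, Mbp and further disease-associated microglia genes were named after their values were seen. Alternatives were RLE scaling, a CPM filter (above 1 in 4 libraries), no filter, the replicate block, a batch term from the suffix of library names, the 2 groups alone, no robust dispersion, a minimum fold of 1.2, the choroid plexus score as a covariate, DESeq2 1.42.0, limma-voom (limma 3.58.1) and leaving out each library. Leaving out the 3 libraries richest in choroid plexus RNA, and all alternatives for the other comparisons, were chosen after seeing the data.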

Additional observations from a re-analysis of the deposited data

Results flagged for a closer look

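In 16 of 212 sets of 4 libraries 1 library was separated from the other 3 by most of the set's range, and chance alone flags about 1 in 20 such sets. No cause was tested for any of them.

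Library 1 of WT was the high one in several. It had 128 CPM of Cldn11 against at most 82 in the other WT libraries, and a choroid plexus score of 1.13 against at most -0.37. In PS19_p16KO the highest choroid plexus score was 2.35 (library 3), against at most -0.50 in the others, and the same library had the highest reactive astrocyte score, 0.15 against at most -0.51.

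Among microglial genes in WT, the highest library had 1.35 CPM of Ccl6 (next 1), 0.644 CPM of Cd52 (next 0.495), 1.17 CPM of Cxcl10 (next 0.591) and 31 CPM of P2ry12 (next 28.4). The lowest WT library had 0.896 CPM of C3ar1 (next 1.2) and 30.4 CPM of Laptm5 (next 32.9). Gbp2b reached 0.161 CPM in 1 WT library and was at 0 in the other 3, and Lamr1-ps1 was at 0 in 1 WT library and at 0.045 CPM or more in the others. Klhl9 reached 126 CPM in WT against 118 in the next library. In PS19_p16KO, Cox7a2l had 74.2 CPM in its lowest library (next 91.9), Mtap 9.96 CPM in its highest (next 7.43) and Lpl 57.7 CPM in its highest (next 55.1).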

How the results depend on the processing

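Under each of 20 alternatives Lamr1-ps1, Prnp and Gbp2b passed, and 4930590L14Rik passed wherever it was tested, which excludes the CPM filter and the fit of 2 groups. The log2 difference of Prnp ran from 0.86 to 0.89, that of Opalin from 0.56 to 0.83 and that of Gpatch11 from -0.59 to -0.46. Opalin did not pass in the fit of 2 groups (adjusted p = 0.236) or with a minimum fold of 1.2 (0.226), and Gpatch11 passed neither of these (0.0549 and 0.874) nor the fit without the 3 libraries richest in choroid plexus RNA (0.0826). With PS19_p16KO against WT the number of called genes, 6 in the main fit (5 higher, 1 lower), was 15 without a filter (13 higher, 2 lower), 12 with a choroid plexus covariate (9 and 3), 32 with DESeq2 (18 and 14) and 27 without the 3 libraries richest in choroid plexus RNA (25 and 2). It was 7 without robust dispersion and 8 with limma-voom, each with 2 lower, and 4 with a minimum fold of 1.2, with 0 lower. Some genes not called in the main fit were called here. Arhgef19 passed without a filter, with the covariate, DESeq2 and limma-voom, and without WT library 1 or the choroid-rich libraries. Pdlim2 passed without a filter, in the fit of 2 groups, and with the replicate block, the covariate and DESeq2. Leaving out single libraries gave 4 to 16 called genes, 4 to 13 higher and 0 to 3 lower, with 16 without WT library 1 and 11 without PS19_p16KO library 4. Genes with an interval within 1.5-fold numbered 11407 to 12043 over all alternatives that give one.

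PS19 against WT called 70 genes in the fit of 2 groups and 118 with a minimum fold, and 124 to 438 without single libraries, with 438 without PS19 library 3. PS19_p16KO against PS19 called 8 in the fit of 2 groups, 87 with the suffix batch, 37 with a minimum fold, 37 with limma-voom, 62 without the choroid-rich libraries and 272 with DESeq2, and 29 to 347 without single libraries, with 347 without PS19 library 3.

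Differences that changed sign were all of genes that did not pass. Without the choroid-rich libraries they were -0.021 for Clec7a, -0.043 for Fcrls, -0.15 for Cxcl10, -0.10 for Cdkn1a, -0.080 for Ggta1 and -0.43 for Itgax. Limma-voom gave -0.058 for Cdkn1a and -0.19 for Itgax, and the choroid covariate -0.043 for Itgax. Without single libraries the values ran from -0.14 to 0.43 for Cxcl10, from -0.089 to 0.19 for Cdkn1a, from -0.064 to 0.20 for Ggta1, from -0.32 to 0.42 for Itgax, from -0.73 to 0.39 for Spp1 and from -0.64 to 0.048 for Lgals3. The causes were not tested.

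With the replicate block 8 genes were called, 7 higher and 1 lower. Same-numbered WT and PS19_p16KO libraries had residual correlations of -0.17, 0.12, 0.12 and 0.19, and not every WT library correlated best with its own number, so the numbers were not taken as pairs. At this depth Cdkn2a had too few counts to pass the count filter, so the fit did not test its difference and only the permutation test did.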
